A study of Homo sapiens with 18 samples.

Results

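The protein kinase C family was described through 8 genes, PRKCA, PRKCB, PRKCD, PRKCE, PRKCH, PRKCI, PRKCQ and PRKCZ, out of the 62703 genes listed in each count table. They were chosen by name, with symbols matched to the Ensembl identifiers of the tables, and all 8 are listed in the tables of all 18 RNA-seq libraries, PRKCH with a count of 0 in 4 of them. The libraries come from the human multiple myeloma cell lines AMO1, H929 and LP1, a cancer of plasma cells, with 3 libraries labelled SCR GapmeR and 3 labelled gN1E GapmeR in each line. Cells of every group took up a naked LNA-gapmeR, an antisense oligonucleotide through which RNase H cuts the paired RNA, at 5 µM for 48 h. The gN1E gapmeR is directed at the long non-coding RNA NEAT1, and SCR is the scrambled control. One gapmeR was used against NEAT1, each line is a single established line, and nothing in the labels says that replicate letters were separate cultures, so p-values measure only the spread between these libraries.

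Protein kinase C enzymes are serine/threonine kinases that act downstream of phospholipase C. Conventional isoforms (PRKCA, PRKCB) need diacylglycerol and calcium, the nPKC isoforms (PRKCD, PRKCE, PRKCH, PRKCQ) need diacylglycerol but no calcium, and atypical isoforms (PRKCI, PRKCZ) answer to neither and work through protein partners in cell polarity. In lymphocytes the family is known for linking antigen receptors to NF-kappaB, with PRKCB in B cells and PRKCQ in T cells. PRKCA is among the targets the study placed under NEAT1, a list drawn in part from these AMO1 libraries, so its change in AMO1 is not independent evidence of a direction.

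The labels went against the data in 2 respects. NEAT1 (ENSG00000245532.11) lay between 75.7 and 90.8 CPM (TMM-scaled counts relative to the library total) in the AMO1 libraries labelled SCR and had a mean of 514.5 ± 40.1 CPM (SD, n = 3) in those labelled gN1E. Its log2 fold change, gN1E minus SCR, was 2.66 in AMO1, 2.74 in H929 and 2.14 in LP1 (adjusted p = 5.1e-13, 3.11e-14 and 0.0269, edgeR's quasi-likelihood test). In LP1 the NEAT1 call was lost when SCR B, gN1E A, gN1E B or gN1E D was omitted (edgeR adjusted p from 0.0578 to 0.176), with log2 fold changes of 2.01 to 2.20. NEAT1 was thus high in every library labelled gN1E, against the purpose of the gapmeR, and the column names inside the tables exchange SCR with gN1E and H929 with LP1. Each library is therefore called by its label, and "higher" means higher in the libraries labelled gN1E, where NEAT1 is also high. NCI-H929 and LP-1 are both known for the translocation t(4;14) that raises FGFR3 and NSD2. FGFR3 lay between 617.5 and 724.4 CPM in the libraries labelled LP1 but between 1.22 and 1.48 CPM in those labelled H929, so the latter go against that mark under either name. Of 10 plasma cell markers, 9 were above 1 CPM in all 3 lines, CD27 being the exception. The 10 summed to 17930 to 18920 CPM under SCR and 20090 to 21290 under gN1E in H929, where the labels were apart, and the labels overlapped in AMO1 and LP1. The sum of 7 genes that mark myeloma lines was also apart in H929 (17390 to 21230 CPM under SCR, 21470 to 22020 under gN1E). Among the 7, median NSD2 was 183 CPM in AMO1, 234.8 in H929 and 1617 in LP1. In the same order CCND2 was at 1823, 1607 and 1.53 CPM, and IGHA1 at 7608, 9328 and 7.91 CPM. The libraries labelled H929 were thus near AMO1 in these marks. They were not in IGHG1 (1.45, 728.3 and 0.144 CPM) or IGLC2 (0.569, 14.2 and 6.14 CPM), and their identity was not tested. Of 6 T cell markers, CD3D stayed under 0.04 CPM in each line and CD3E lay between 7.40 and 24.9 CPM. CD3G, CD247, TRAC and CD8A were above 1 CPM in each AMO1 library, and CD247, TRAC and CD8A in each H929 library, but none of these in each LP1 library. The 6 summed to 33.8 to 35.8 CPM under SCR and 30.3 to 34.1 under gN1E in AMO1, to 14.7 to 17.4 and 16.2 to 16.9 in H929, and to 15.1 to 17.0 and 10.7 to 14.5 in LP1, where the labels were apart. Of 4 myeloid markers, CSF1R lay between 3.245 and 9.39 CPM in LP1, and the other 3 stayed under 0.3 CPM in each line. The 4 summed to 7.015 to 9.60 CPM under SCR and 3.58 to 6.15 under gN1E in LP1, again apart, and overlapped in AMO1 and H929. The part of these markers in the results was not tested. In bulk RNA, fewer cells of a type and less RNA per cell cannot be told apart.

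Total counts ran from 28061606 to 69937229 per library. In AMO1 the libraries labelled gN1E were shallower (28061606 to 49784737) than those labelled SCR (53227560 to 66142827). Depth therefore differed with the label in AMO1, and its part in the results was not tested.

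Per length of gene model, the atypical PRKCI and the nPKC isoform PRKCD were the most abundant isoforms in every line. This order depends on the length. In mean CPM, PRKCA was above PRKCD in H929 (55.7 against 38.9 under SCR, 88.5 against 40.9 under gN1E). Under gN1E, PRKCA was also above PRKCI in H929 (85.3) and above PRKCD in AMO1 (42.7 against 40.0). The other levels given here are FPKM, computed from the deposited counts, the summed exon length and TMM-scaled totals. Each is the median of the 6 libraries of a line. In AMO1 the order was PRKCI (11.5), PRKCD (8.47), PRKCA (3.17), PRKCB (2.13), PRKCQ (1.82), PRKCZ (1.38), PRKCE (0.0758) and PRKCH (0.00269). The ranges of neighbours over the 6 libraries were apart, except for PRKCB and PRKCQ.

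In the libraries labelled H929, PRKCI led at 15.3 FPKM, followed by PRKCD (8.11), PRKCA (6.41), PRKCB (1.51), PRKCQ (1.37), PRKCZ (1.24), PRKCE (0.149) and PRKCH (0.00967). The ranges of PRKCD and PRKCA overlapped, as did those of PRKCB, PRKCQ and PRKCZ in turn. In the libraries labelled LP1, PRKCD led at 13.9 FPKM and PRKCI came next at 10.9, ahead of PRKCB (3.27), PRKCA (1.94), PRKCZ (1.58), PRKCE (0.441), PRKCQ (0.427) and PRKCH (0.00521). Here PRKCB stood above PRKCA, the reverse of the other lines, and PRKCE and PRKCQ overlapped.

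**Figure D1:**
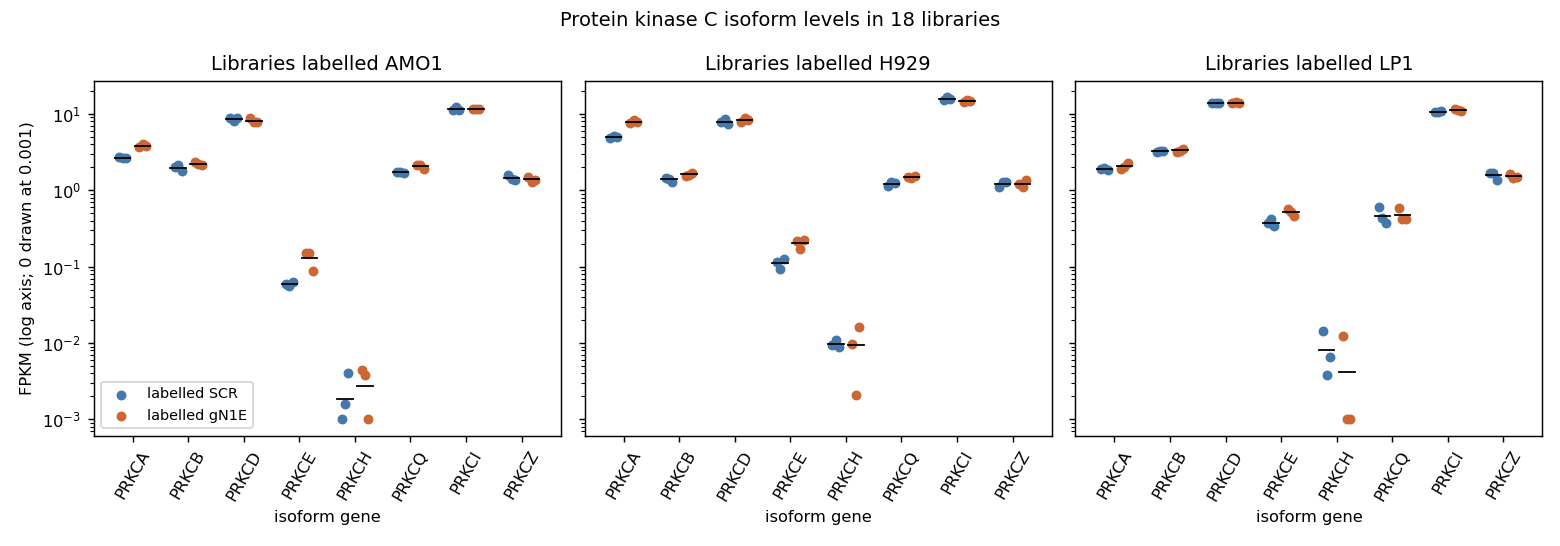
FPKM (log axis, values of 0 drawn at 0.001) of the 8 protein kinase C genes in the 3 libraries of each label and line, with a bar at each mean. PRKCI and PRKCD lie highest in all 3 panels, PRKCE lies under 0.6 FPKM and PRKCH under 0.02 FPKM.

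PRKCH, the nPKC isoform eta, was not measurable. It had 53 counts in the 18 libraries together, 0 in 4 of them and at most 9 in any one, under the minimum of 10 reads. A count of 0 at the depth of the shallowest library would allow up to 0.107 CPM (3 counts, counting error only). That library, AMO1 gN1E C, held 1 PRKCH count, and the highest level of PRKCH was 0.145 CPM, in H929 gN1E C. It entered no test, so 7 of 8 members were tested in each line.

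The lines differed in most isoforms. Over both labels, 19 of 21 combinations of a member and a pair of lines differed in level (adjusted p under 0.05, edgeR's quasi-likelihood test in a joint fit of 18 libraries). Among all 26436 genes tested, 44.4% differed between AMO1 and H929, 75.9% between AMO1 and LP1 and 74.6% between H929 and LP1, so a difference between lines was common. The members past the threshold were 6 of 7 in the first pair, 6 of 7 in the second and 7 of 7 in the third.

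PRKCA was highest in the libraries labelled H929, by 0.98 on the log2 scale over AMO1 and by 1.66 over LP1 (standard error 0.044 and 0.045, edgeR adjusted p = 2.86e-19 and 1.89e-26). PRKCE was highest in LP1, with log2 differences from LP1 of -2.31 in AMO1 and -1.55 in H929 (adjusted p = 3.26e-17 and 1.93e-13). PRKCQ ran the other way, with 1.98 more in AMO1 and 1.503 more in H929 than in LP1 on the log2 scale. PRKCB and PRKCD were both highest in LP1, at 0.65 and 0.74 log2 above AMO1. The pairs that did not pass were PRKCD between AMO1 and H929 (log2 difference 0.05, standard error 0.045, adjusted p = 0.437) and PRKCZ between AMO1 and LP1 (-0.13, standard error 0.069, adjusted p = 0.101). PRKCI between AMO1 and LP1 passed narrowly, at 0.08 (standard error 0.037, adjusted p = 0.0474).

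Against SCR, 2 of the 7 members tested, PRKCA and PRKCE, were higher in the libraries labelled gN1E of AMO1 and also of H929, none was lower in any line, and none passed the threshold in LP1. Of all genes tested, 1.64% were higher and 0.419% lower in AMO1, 3.7% higher and 1.77% lower in H929, and 0.656% higher and 0.777% lower in LP1. The median log2 fold change of the 7 members was 0.18 in AMO1, 0.20 in H929 and 0.05 in LP1, beside -0.02, -0.01 and -0.001 over all genes tested. At an unadjusted p under 0.05, LP1 had 1 of 7 members, PRKCE, beside 3018 of all 23165 genes tested, a share near that of the members. There limma-voom called 0 members and DESeq2 called 1.

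**Figure D2:**
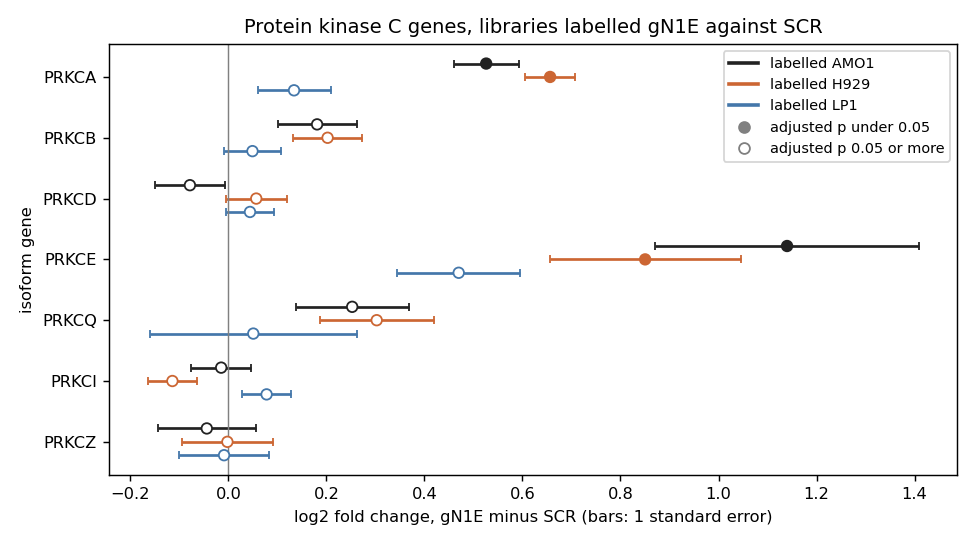
Log2 fold change (gN1E minus SCR, bars of 1 standard error) of the 7 tested protein kinase C genes in the libraries labelled AMO1, H929 and LP1; filled points have an adjusted p under 0.05. PRKCA and PRKCE are filled in AMO1 and H929, and no point is filled in LP1.

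PRKCA (ENSG00000154229.12, chr17:66302613-66810743 of hg38, plus strand) encodes the conventional isoform alpha. In AMO1 it stood at 30.1, 29.45 and 29.6 CPM in the SCR libraries A, C and D and at 40.9, 45.0 and 42.3 CPM in the gN1E libraries A, C and D. All gN1E libraries lay above all SCR libraries, by 0.53 on the log2 scale (standard error 0.067, edgeR adjusted p = 4.37e-05). This change is under 1.5-fold, so PRKCA in AMO1 did not pass a rule that asks for an adjusted p under 0.1 and at least 1.5-fold.

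In H929 PRKCA was at 53.6, 57.5 and 55.9 CPM in the SCR libraries A, B and C and at 85.8, 93.0 and 86.7 CPM in the gN1E libraries. The labels were again apart, by 0.66 on the log2 scale (standard error 0.052, edgeR adjusted p = 3.45e-10). In LP1 the SCR libraries A, B and D held 21.4, 21.9 and 20.6 CPM and the gN1E libraries 21.2, 22.4 and 25.7 CPM. These overlapped, and gN1E minus SCR was 0.13 on the log2 scale (standard error 0.075, edgeR adjusted p = 0.471).

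The response of PRKCA itself differed between lines. In the joint fit it was 0.56 larger on the log2 scale in H929 than in LP1 (standard error 0.089, edgeR adjusted p = 0.000299) and 0.41 larger in AMO1 than in LP1 (standard error 0.090, edgeR adjusted p = 0.0159). Among all genes tested 0.874% and 0.741% passed in these contrasts. The second call was lost with scaling by library size alone (edgeR adjusted p = 0.122), and without AMO1 gN1E C (0.059), LP1 SCR B (0.0602), LP1 gN1E A (0.0807) or LP1 gN1E B (0.0558). Between AMO1 and H929 the difference was -0.15 (standard error 0.087, edgeR adjusted p = 0.816), in a contrast where 0% of genes passed and 1771 genes had an unadjusted p under 0.05, none of them a member. No member passed there with limma-voom or DESeq2 either, and no other member passed in any pair.

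PRKCE (ENSG00000171132.14, chr2:45651345-46187990, plus strand) encodes the nPKC isoform epsilon. Its counts were low, from 27 to 308 per library. In AMO1 it stood at 0.596, 0.562 and 0.629 CPM in the SCR libraries A, C and D and at 1.515, 1.496 and 0.884 CPM in the gN1E libraries. Library gN1E D lay nearest to the controls but still above them. The difference was 1.14 on the log2 scale (standard error 0.269, edgeR adjusted p = 0.0254). This call was lost with limma-voom (log2 fold change 1.13, adjusted p = 0.0527), with the trend of fold change on genomic span removed (1.008, edgeR adjusted p = 0.0624), and without any 1 of the AMO1 libraries other than gN1E D (0.998 to 1.18, edgeR adjusted p from 0.0642 to 0.119), while DESeq2 gave no adjusted p. The log2 fold change thus stayed near its size where the call was lost.

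In H929 PRKCE was at 1.16, 0.921 and 1.27 CPM in the SCR libraries A, B and C and at 2.14, 1.70 and 2.22 CPM in the gN1E libraries. The difference was 0.85 on the log2 scale (standard error 0.195, edgeR adjusted p = 0.0067), and the call was kept in all 16 alternative fits. In LP1 the SCR libraries A, B and D held 3.68, 4.22 and 3.42 CPM and the gN1E libraries 5.71, 5.13 and 4.58 CPM. The labels did not overlap, but the difference of 0.47 on the log2 scale, with a standard error of 0.125, had an edgeR adjusted p of 0.0648. It passed with DESeq2 (adjusted p = 0.0437), and in edgeR with library size only (0.0452) and with no filter on low counts (0.0227). The response of PRKCE was not shown to differ between lines, the largest difference being 0.70 between AMO1 and LP1 (standard error 0.271, adjusted p = 0.302, edgeR).

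PRKCB and PRKCQ did not pass the threshold in any line, although their labels were apart in AMO1 and H929. PRKCB (ENSG00000166501.14), the conventional isoform beta, had SCR levels of 22.1, 23.5 and 19.6 CPM in AMO1 and gN1E levels of 25.6, 24.6 and 23.5 CPM. In H929 these were 16.1, 15.5 and 14.4 CPM under SCR and 17.25, 17.7 and 18.6 CPM under gN1E. Its log2 fold change was 0.18 in AMO1, 0.20 in H929 and 0.05 in LP1 (adjusted p = 0.366, 0.102 and 0.778, edgeR). PRKCQ (ENSG00000065675.16), the nPKC isoform theta, had SCR levels of 5.71, 5.77 and 5.53 CPM in AMO1 and gN1E levels of 6.96, 7.11 and 6.15 CPM. In H929 these were 3.69, 4.21 and 4.03 CPM under SCR and 4.92, 4.81 and 5.09 CPM under gN1E. Its log2 fold change was 0.25 in AMO1, 0.30 in H929 and 0.05 in LP1 (adjusted p = 0.382, 0.148 and 0.951, edgeR).

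Thus 4 of the 7 tested members had all gN1E libraries above all SCR libraries in AMO1, where 9.17% of all genes tested did, and the same 4 members in H929, where 12.2% did. In LP1 this held for PRKCE alone, beside 7.42% of all genes. For a single gene, 3 against 3 libraries allow no two-sided exact permutation p under 0.1, which is the value of each such gene.

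PRKCD, PRKCI and PRKCZ had overlapping labels in each line. PRKCD (ENSG00000163932.16), the nPKC isoform delta, had log2 fold changes of -0.08, 0.06 and 0.04 in AMO1, H929 and LP1 (adjusted p = 0.715, 0.702 and 0.763, edgeR). PRKCI (ENSG00000163558.13), the atypical isoform iota, had -0.01, -0.11 and 0.08 (adjusted p = 0.955, 0.213 and 0.549, edgeR). PRKCZ (ENSG00000067606.17), the atypical isoform zeta, had -0.04, -0.002 and -0.009 (adjusted p = 0.914, 0.994 and 0.983, edgeR). Over the 6 libraries of a line, PRKCD ranged from 7.735 to 8.96 FPKM in AMO1, from 7.28 to 8.755 in H929 and from 13.85 to 14.3 in LP1. PRKCI ranged from 11.15 to 12.5, from 14.25 to 16.6 and from 10.6 to 11.5 FPKM, and PRKCZ from 1.30 to 1.57, from 1.11 to 1.35 and from 1.36 to 1.67 FPKM. Standard errors of these 3 genes were between 0.049 and 0.0998 on the log2 scale.

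PRKCA made up different shares of protein kinase C RNA under the 2 labels in AMO1 and H929. Its share of the summed FPKM of the 8 genes was 9.44% ± 0.205 in the SCR libraries and 13.1% ± 0.838 in the gN1E libraries of AMO1 (SD, n = 3 each). In H929 it was 15.3% ± 0.395 and 22.3% ± 0.484, and in LP1 5.92% ± 0.162 and 6.23% ± 0.672. PRKCA and PRKCB together made up 16.4% and 20.7% in AMO1, 19.5% and 26.8% in H929, and 16.0% and 16.2% in LP1. The atypical share in H929 was 52.2% under SCR and 45.0% under gN1E. Shares of a sum move together, so a higher share of one isoform lowers the others.

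**Figure D3:**
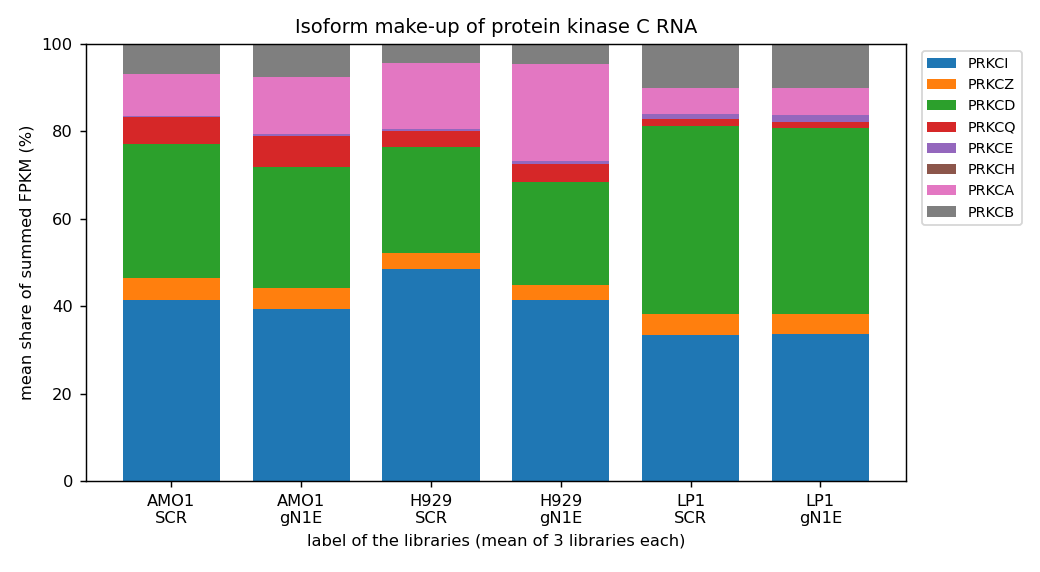
Stacked mean shares (percent of summed FPKM, 3 libraries per bar) of the 8 protein kinase C genes for each line and label. The PRKCA share is 9.44% and 13.1% in AMO1 and 15.3% and 22.3% in H929, while both LP1 bars are near 6%.

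Across the 18 libraries, after the mean of each line was taken off log2(CPM + 0.5), the genes whose pattern was most like that of PRKCA were TMEM44 (Pearson r = 0.985), HNRNPLL (0.968), APLP2 (0.968), XPNPEP1 (0.968) and PPP3CA (0.968), among 11525 genes with a symbol and a mean log2 CPM of at least 2. NEAT1 ranked 182 (r = 0.897). Of the other members, PRKCB had r = 0.795, PRKCE 0.793 and PRKCQ 0.601, against 0.037 for PRKCD, -0.11 for PRKCZ and -0.43 for PRKCI. These values describe libraries that share labels, depth and line, and carry no test.

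The members that were higher are long genes. PRKCE spans 536.6 kb and PRKCA 508.1 kb, ahead of PRKCB (384.6 kb), PRKCH (363.4 kb), PRKCQ (153.2 kb), PRKCZ (135.0 kb), PRKCI (83.5 kb) and PRKCD (36.7 kb). Genes with a span of at least 100 kb were called higher in 7.14% of cases in AMO1, 12% in H929 and 1.82% in LP1, against 0.791%, 2.33% and 0.459% of shorter genes (edgeR, adjusted p under 0.05). With the trend on span removed and the replicate letter as a block, the log2 fold change of PRKCA was 0.39 in AMO1 and 0.53 in H929 (adjusted p = 3.17e-05 and 5.65e-06, edgeR), and that of PRKCE was 0.98 and 0.71 (adjusted p = 0.0256 and 0.0411, edgeR). With the span trend removed but no block, PRKCE in AMO1 had 1.008 and did not pass (edgeR adjusted p = 0.0624). In that fit PRKCB had 0.069 in AMO1 and 0.098 in H929, beside 0.18 and 0.20 in the main fit.

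**Figure D4:**
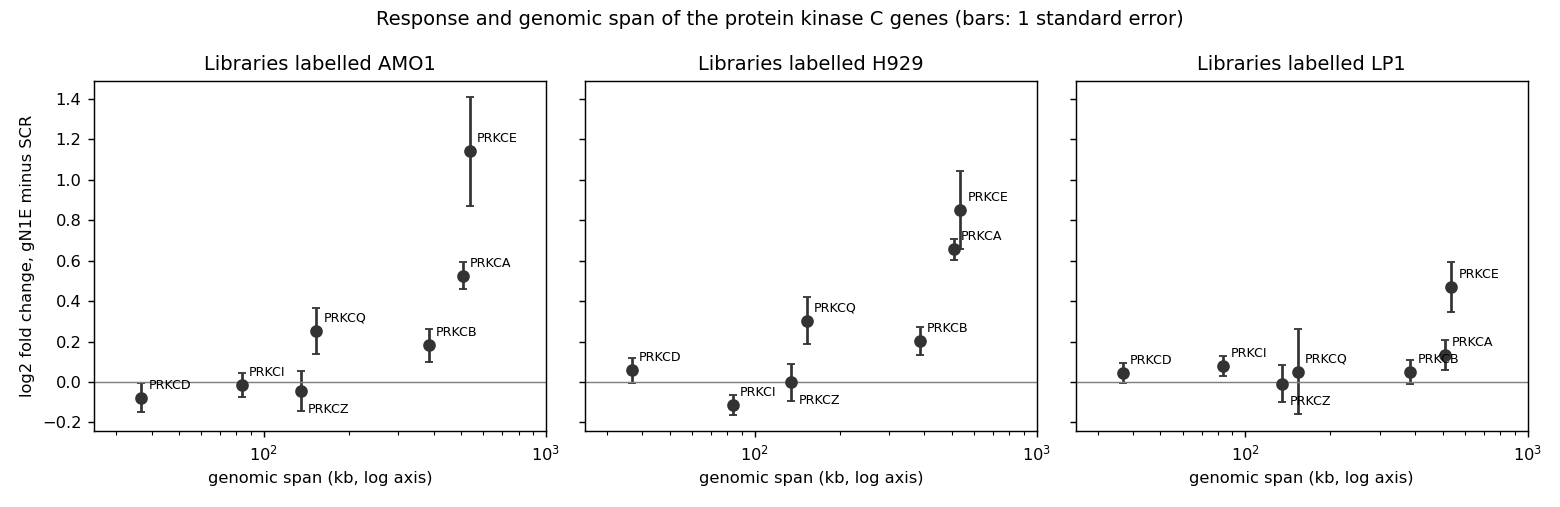
Log2 fold change (gN1E minus SCR, bars of 1 standard error) against genomic span (kb, log axis) for the 7 tested protein kinase C genes, 1 panel per line. The longest genes, PRKCE (536.6 kb) and PRKCA (508.1 kb), have the highest values in AMO1 and H929, and PRKCZ (135.0 kb) stays near 0.

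A short segment of NEAT1 has stretches in common with several members. Every stretch of 11 bases of NEAT1 was scored by the AMO1 log2 fold changes of 14991 genes averaging 1 CPM or more, each gene being searched on its transcribed strand and compared with genes of like span. The leading stretch was carried by 262 genes with a mean excess log2 fold change of 0.27. Since the AMO1 values chose it, the AMO1 values of its carriers are no test, and its part in the results was not tested. The segment covers bases 3075 to 3095 of the NEAT1 gene (chr11:65425848-65425868, plus strand, exon), and the leading stretch is in capitals in the first line. In the other lines the capitals mark the longest unbroken run shared with the segment, all read 5′ to 3′ on the transcribed strand of hg38. Bases outside the run can also be equal to the segment at the same place. Counted over all 21 bases, the windows shown had 12 equal bases in PRKCE, 11 in PRKCA, 15 in PRKCQ, 13 in PRKCB and 15 in PRKCI, so the order by equal bases is not the order by run. PRKCE and PRKCA are shown as the members that were higher, PRKCQ and PRKCB as those whose labels were apart without a call, and PRKCI as one whose labels overlapped.
NEAT1 segment: accttTTGTGGTCACTgtaaa
PRKCE, intron, chr2:46017799-46017810, plus strand: gtgaTTTGTGGTCACTcattt
PRKCA, intron, chr17:66361698-66361708, plus strand: cttgaagGTGGTCACTGTttc
PRKCQ, intron, chr10:6571241-6571251, minus strand: cccctcTGTGGTCACTGggat
PRKCB, intron, chr16:23851569-23851579, plus strand: gtCTTTTGTGGTCccatatga
PRKCI, intron, chr3:170260256-170260265, plus strand: gaaTTTTGTGGTCtctgtatg

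PRKCE held an unbroken run of 12 shared bases that contains the leading stretch. PRKCH, which was not measurable, also held a run of 12 bases, in an exon and without the leading stretch. The 5 stretches with the highest scores in NEAT1 all lay in this segment. PRKCE carried those of rank 1, 2 and 4, PRKCQ that of rank 3, and PRKCA and the unmeasured PRKCH that of rank 5. At least 1 of these 5 stretches was carried by 9.15% of the scored genes and by 31.0% of those of at least 100 kb, and the 4 members that carry one are all longer than that. PRKCB had runs of 11 bases but none of these 5 stretches, and the longest runs of PRKCI, PRKCD and PRKCZ were 10, 9 and 9 bases. A run of at least 11 bases was held by 14.9% of the scored genes, 49.5% of those of at least 100 kb and 82.7% of those of at least 400 kb, so in genes as long as PRKCA and PRKCE such a run is common. Among genes of at least 100 kb, those with any of the 5 stretches were called higher in 30.5% of cases in H929 and 4.39% in LP1, against 8.27% and 0.732% of those without. Every line took up the same gapmeRs, so these shares are not independent of the AMO1 values that chose the stretches. The part of the stretches in the results was not tested in H929 or LP1 either. A shared stretch is a description of the sequence and not a binding site.

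The other genes of the pathway were followed through 7 lists with 81 genes, upstream and downstream of protein kinase C. In AMO1, 6 of the 70 tested were higher and 1 lower. With the replicate letter as a block 10 passed in AMO1, and the counts per list below come from the fit without it. In H929, 9 of 75 were higher and 4 lower, and in LP1 none of 72 was higher and 1 was lower. The 7 calls in AMO1 fell to 2 when SCR D, gN1E C or gN1E D was omitted, and the single call in LP1 became 7 when SCR D and 0 when gN1E A was omitted. As shares these were 8.57% higher and 1.43% lower in AMO1, beside 1.64% and 0.419% of all genes tested, 12% and 5.33% in H929, beside 3.7% and 1.77%, and 0% and 1.39% in LP1, beside 0.656% and 0.777%. The medians of the lists together were 0.02, 0.05 and 0.02 on the log2 scale, beside -0.02, -0.01 and -0.001 over all genes tested. ITPR1, ITPR2 and UNC13B are among the targets of the study, chosen in part on the AMO1 libraries, and are not independent evidence of a direction there.

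Upstream, among phospholipases C and receptors for the calcium-releasing messenger IP3, 3 of 13 were higher in AMO1 (23.1%, beside 1.64% of all genes tested and 7.14% of those of at least 100 kb) and 3 of 14 in H929 (21.4%, beside 3.7% and 12%). PLCB1, a phospholipase C that makes diacylglycerol, had log2 fold changes of 0.37 in AMO1 and 0.30 in H929 (edgeR adjusted p = 0.0086 and 0.00188). The IP3 receptor ITPR1 had 0.22 in AMO1 and 0.27 in H929 (edgeR adjusted p = 0.0214 and 0.000215). ITPR2 was higher in AMO1 (0.26, edgeR adjusted p = 0.0179) and ITPR3 in H929 (0.26, edgeR adjusted p = 0.00166). With the span trend removed, PLCB1 passed in neither line and ITPR1 and ITPR2 did not pass in AMO1 (log2 fold changes 0.20, 0.13, 0.11 and 0.12, edgeR adjusted p = 0.19, 0.234, 0.349 and 0.335, in that order). The AMO1 calls of PLCB1, ITPR1 and ITPR2 were also lost without SCR D, gN1E C or gN1E D (edgeR adjusted p from 0.0779 to 0.158), and those of ITPR1 and ITPR2 with library size only (0.0876 and 0.0604).

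Of the diacylglycerol kinases, which remove diacylglycerol, 1 of 8 was higher in H929, DGKH (0.23, edgeR adjusted p = 0.00192), and none of 8 passed in AMO1 or LP1. DGKH did not pass with the span trend removed and the replicate block (0.17, edgeR adjusted p = 0.0654). Of the other proteins that bind diacylglycerol through a C1 domain, 2 of 9 were higher and 1 lower in AMO1 and also in H929, and 0 of 8 were higher and 1 lower in LP1. UNC13B, a vesicle priming factor, was higher in AMO1 (0.77, standard error 0.056, edgeR adjusted p = 2.11e-08) and in H929 (0.81, standard error 0.050, edgeR adjusted p = 1.89e-12). RASGRP3, an exchange factor for Ras family GTPases, was higher in AMO1 (0.26, edgeR adjusted p = 0.0214) and lower in LP1 (-0.30, edgeR adjusted p = 0.00664). The AMO1 call was lost with the span trend removed (log2 fold change 0.20, edgeR adjusted p = 0.0654) but was kept when the replicate block was added to that fit. It was also lost with scaling by library size alone (edgeR adjusted p = 0.0515) and when SCR D, gN1E C or gN1E D was left out (0.179, 0.126 and 0.212), and the LP1 call without gN1E A (0.0518). The responses of RASGRP3 differed by 0.58 between AMO1 and LP1 in the joint fit (standard error 0.075, edgeR adjusted p = 1.23e-05). RASGRP2 was lower in AMO1 (-0.34, edgeR adjusted p = 0.0139), CHN1 higher in H929 (0.32, edgeR adjusted p = 0.00974) and UNC13D lower in H929 (-0.80, edgeR adjusted p = 0.0238). The call of RASGRP2 was lost without SCR D, gN1E C or gN1E D (edgeR adjusted p from 0.106 to 0.138) and that of CHN1 without SCR A (0.0889). CHN1 also did not pass with the span trend removed and the replicate block (0.26, edgeR adjusted p = 0.0871). UNC13D lost its call in the joint fit (edgeR adjusted p = 0.0693) and without SCR A, SCR B or gN1E C (0.095 to 0.117).

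Among related kinases, PRKD2, a protein kinase D that protein kinase C activates, was higher in H929 (0.36, edgeR adjusted p = 2.94e-06), the single call among 7, and none of 6 passed in AMO1 or LP1. Of the priming kinases, phosphatases, scaffolds and polarity partners, 1 of 18 passed in H929, the phosphatase PHLPP1 (0.29, edgeR adjusted p = 0.00552), and none of 16 in AMO1 or of 17 in LP1. PHLPP1 did not pass with the span trend removed (0.22, edgeR adjusted p = 0.0516). Among classical substrates, the adducin ADD3 was higher in AMO1 (0.64, edgeR adjusted p = 1.44e-07) and H929 (0.41, edgeR adjusted p = 3.06e-07), and MARCKS was lower in H929 (-0.24, edgeR adjusted p = 0.00404). On the lymphocyte route to NF-kappaB, 2 of 12 were lower in H929, the kinase BTK (-0.47, edgeR adjusted p = 0.00363) and the adaptor BLNK (-0.66, edgeR adjusted p = 0.00193), and none of 12 passed in AMO1 or LP1. In the lists with no call, an unadjusted p under 0.05 (edgeR) was reached in AMO1 by 2 of 8 diacylglycerol kinases, 6 of 12 genes of the lymphocyte route and 0 related kinases and partners, beside 2803 of all 22933 genes tested. In LP1 it was reached by 2 of 14 phospholipases C and IP3 receptors, 2 of 6 related kinases, 2 of 17 partners, 3 of 7 substrates, 1 of 12 genes of the lymphocyte route and 0 of 8 diacylglycerol kinases, beside 3018 of all 23165 genes.

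**Figure D5:**
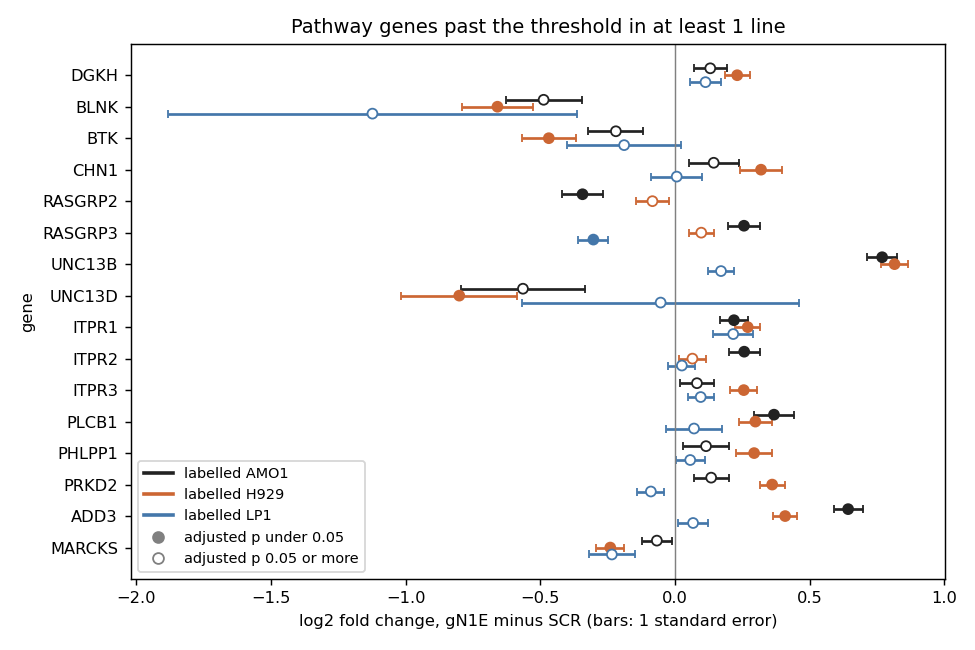
Log2 fold change (gN1E minus SCR, bars of 1 standard error) of the pathway genes with an adjusted p under 0.05 in at least 1 line; filled points mark those calls, and RASGRP2 was not tested in LP1. UNC13B and ADD3 are filled above 0 in AMO1 and H929, and RASGRP3 is filled above 0 in AMO1 and below 0 in LP1.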

How the data were processed

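The authors sequenced stranded total RNA libraries, aligned the reads to hg38 with STAR 2.7.10a, counted them per gene over exons and by strand with featureCounts 1.6.4 on GENCODE release 43, and deposited raw counts without normalization. Groups were taken from the sample labels. Log2 fold changes came from edgeR 4.0.16 (TMM, robust quasi-likelihood fit, Benjamini-Hochberg adjustment over all genes tested, threshold 0.05) in R 4.3.3, per line, for genes reaching 10 reads in 1 or more of 6 libraries. Levels and responses between lines came from a joint fit of 18 libraries. Alternatives were limma-voom (limma 3.58.1), DESeq2 1.42.0, other scalings and filters, a replicate block, removal of the trend on span and a joint fit. Further ones were omission of single libraries and the rule of adjusted p 0.1 and 1.5-fold from the supplementary methods of the study. The main text of the study gives its AMO1 calls at an FDR under 0.05 and names no fold change there. Deviations of same-lettered libraries had weak positive correlations in AMO1 (0.215, 0.187 and 0.121). They did not for every letter in H929 (-0.006, -0.066 and -0.116) or LP1 (0.175, 0.008 and -0.059). Libraries of different letters were not compared, so these values do not settle whether the letters pair libraries. If they do, the main fit leaves the pairing out, and the fits with the block are given beside it. Sequences came from the hg38 reference with GENCODE release 44. The named genes are the members, NEAT1, up to 4 called genes per pathway list and line, the listed targets of the study and the 5 genes most like PRKCA. Members, lists and tests were chosen with earlier results of these data known. Python 3.11.15 and matplotlib 3.10.9 were used for tables and figures.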

Additional observations from a re-analysis of the deposited data

Results flagged for a closer look

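The response to the label, gN1E minus SCR, differed between lines for several genes in the joint fit of 18 libraries (edgeR, adjusted p under 0.05 for the difference itself). For PRKCA it was 0.41 larger on the log2 scale in AMO1 than in LP1 and 0.56 larger in H929 than in LP1. The first of these was lost with scaling by library size alone (edgeR adjusted p = 0.122) and without AMO1 gN1E C, LP1 SCR B, LP1 gN1E A or LP1 gN1E B (0.0558 to 0.0807). For UNC13B the differences were 0.62 and 0.68, and for ADD3 0.59 and 0.38. With library size only, the ADD3 difference between H929 and LP1 was 0.27 and did not pass (edgeR adjusted p = 0.0995). For RASGRP3 they were 0.58 and 0.44. PRKD2 differed by 0.49 between H929 and LP1. NEAT1 itself had log2 fold changes of 2.66, 2.74 and 2.14 in AMO1, H929 and LP1. In the joint fit its response was 0.54 larger in AMO1 and 0.64 larger in H929 than in LP1. Neither NEAT1 difference passed (edgeR adjusted p = 0.278 and 0.197), and the part of NEAT1 in the differences of the other genes was not tested.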

How the results depend on the processing

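No result changed sign past the threshold. Of 335 member log2 fold changes recomputed per line under the alternatives, 325 kept their side of the threshold, 7 lost a call and 3 gained one. PRKCA kept its calls in AMO1 and H929 in all 16 alternative fits of each line at the threshold of 0.05, but under the rule of adjusted p 0.1 and 1.5-fold its log2 fold change of 0.53 in AMO1 did not pass, and the 2 members called in H929 were 2 in every alternative. The 2 members called in AMO1 were 1 with limma-voom, 1 with DESeq2 (which gave PRKCE no adjusted p), 1 with the span trend removed, 1 under the 1.5-fold rule (PRKCE), and 1 to 2 with a library left out. The 0 members called in LP1 were 1 with DESeq2, 1 with library size only and 1 with no filter, and 0 with any library left out. The 2 differing responses were 1 with library size only and 1 to 2 with a library left out. The 19 level differences ranged from 18 to 20. Pathway calls in AMO1 (7) were 4 with the span trend removed, 2 under the 1.5-fold rule and 2 to 9 with a library left out (2 without SCR D, gN1E C or gN1E D). In H929 (13) they were 3 under the 1.5-fold rule and 11 to 14 with a library left out. In LP1 (1) they were 4 with DESeq2, 3 with library size only, 5 with no filter, 0 under the 1.5-fold rule and 0 to 7 with a library left out (7 without SCR D, 0 without gN1E A). With the replicate block, members called were 2, 2 and 0 and pathway genes 10, 13 and 1 in AMO1, H929 and LP1. Added to the main fit, the block thus changed no member's call. With the span trend removed, PRKCE in AMO1 passed with the block (edgeR adjusted p = 0.0256) and not without it (0.0624). The NEAT1 call in LP1 was lost without SCR B, gN1E A, gN1E B or gN1E D (edgeR adjusted p from 0.0578 to 0.176), with log2 fold changes of 2.01 to 2.20. Of 48 group mean FPKM values, 15 moved by more than 1 SD with unscaled totals. The cause of these changes was not tested. PRKCH had too few counts to test, and the low counts of PRKCE in AMO1 and PRKCQ in LP1 went with standard errors of 0.269 and 0.211 on the log2 scale.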
